A study of Homo sapiens with 6 samples.

Results

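The 10 genes described here take part in the handling of adenosine. They are the ecto-nucleotidase genes NT5E (which encodes CD73), ENTPD1 (CD39) and ENPP1 and the receptor genes ADORA1 and ADORA2B. The others are the enzyme genes ADA and ADK with DPP4, and the nucleoside transporter genes SLC29A1 and SLC29A2. All 10 were taken by symbol from the 28278 rows of the count tables, were present, and passed the filter on low counts. The set was chosen by symbol and role. The fold changes and calls of shTRIM21 against shControl were already known from earlier work on these data. The values of its members between the groups are therefore a description, and no p-value is given for them. Their 95% intervals and their calls against the threshold are description too, and do not test the set or a member anew. RNA came from RKO, an established human line of poorly differentiated colon carcinoma, in 6 libraries. The 3 shTRIM21 libraries carried a lentiviral short hairpin RNA against TRIM21, a ubiquitin ligase gene, and the 3 shControl libraries a scrambled hairpin, also from a lentivirus, with the genotype given as WT in the labels. Cells of both groups were put under puromycin at 5 µg/ml from 36 h after infection for weeks, and the labels give neither the number of separate infections nor whether a line is 1 clone. Both groups thus carry a lentiviral hairpin and the puromycin selection. The labels call the 3 libraries of each group biological replicates. P-values measure only the spread between these libraries, which may leave out that between separate infections. The source field of the labels says mouse tissue, but the stated organism and line and all symbols are those of human cells.

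ATP and ADP released from cells are cut to AMP at the cell surface by CD39, and ATP also directly to AMP and pyrophosphate by ENPP1. CD73, held in the membrane by a lipid anchor, then turns AMP into adenosine, which acts on G protein-coupled receptors: the A1 receptor lowers cyclic AMP and the A2B receptor raises it. Adenosine leaves this pool when ADA deaminates it to inosine, when the equilibrative transporters carry it across the membrane, or when ADK phosphorylates it back to AMP inside the cell. In tumours the pathway is known for damping immune cells, and CD73 is also found on fibroblasts and endothelial cells.

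Libraries held 33499827 to 44466137 counts, of which 27808151 to 29100459 lay outside the ribosomal RNA rows, whose share was highest in shControl replicates 1 and 3 (31.0% and 36.9%, against 14.7% to 23.5% in the others). TRIM21 itself had 299, 271 and 297 counts in shTRIM21 and 459, 421 and 343 in shControl, without overlap (log2 fold change -0.54, SE 0.12, edgeR adjusted p = 0.00424). With library sizes alone, which include the ribosomal RNA rows, the change was -0.34 and not called. With the ribosomal RNA rows left out it was -0.55 and called. Of 12 epithelial markers 9 passed the filter, with LGALS4, CDH17 and MUC2 under 1 CPM (the count scaled to library size) in every library. Their summed level was lower in shTRIM21, 4813 to 5045 CPM, than in shControl, 6166 to 6808 CPM, and 3 keratins carried this: KRT8 (means of 2501 and 3384 CPM), KRT18 (944 and 1299.8) and KRT19 (1032 and 1340.4). CDH1, which encodes E-cadherin, went the other way, from 41.8 CPM in shControl to 62.2 in shTRIM21 without overlap, and EPCAM (198 in shTRIM21 and 180.1 in shControl) overlapped. Fibroblast markers summed to 10.5 to 11.1 CPM in shTRIM21 and 6.15 to 9.19 CPM in shControl, nearly all of it COL1A1 (means of 10.2 and 7.88 CPM), while DCN and LUM were listed at 0. Endothelial markers summed to at most 0.773 CPM with CDH5 and EMCN listed at 0, and leukocyte markers to at most 8.69 CPM, nearly all of it CD68, with CD3E and MS4A1 listed at 0. The part of the keratin, CDH1 and COL1A1 differences in the results below was not tested.

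Promoter sequences of the 4 members that passed the threshold for a change are shown first, as annotated start regions of genes whose levels are described below. Each run holds 250 bases before and 50 after the annotated start, 5′ to 3′ on the gene's strand, from RefSeq on GRCh38.p14. Capitals mark the letters TGACG, the first part of a cyclic AMP response element, and GGGCGG, a GC box of the Sp1 type, on either strand (CGTCA and CCGCCC on the other).
NT5E: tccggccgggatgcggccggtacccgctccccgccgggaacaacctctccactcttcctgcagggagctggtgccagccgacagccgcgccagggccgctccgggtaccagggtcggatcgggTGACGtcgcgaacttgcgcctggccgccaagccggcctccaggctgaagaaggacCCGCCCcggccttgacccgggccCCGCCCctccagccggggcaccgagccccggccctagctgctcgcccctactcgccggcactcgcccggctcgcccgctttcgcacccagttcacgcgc
ADK: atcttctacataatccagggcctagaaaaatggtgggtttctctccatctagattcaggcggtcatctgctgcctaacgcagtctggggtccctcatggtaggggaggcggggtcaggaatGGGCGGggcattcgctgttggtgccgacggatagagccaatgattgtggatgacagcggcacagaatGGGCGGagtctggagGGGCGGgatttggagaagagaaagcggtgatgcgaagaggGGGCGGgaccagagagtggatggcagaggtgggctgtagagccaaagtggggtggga
ADORA1: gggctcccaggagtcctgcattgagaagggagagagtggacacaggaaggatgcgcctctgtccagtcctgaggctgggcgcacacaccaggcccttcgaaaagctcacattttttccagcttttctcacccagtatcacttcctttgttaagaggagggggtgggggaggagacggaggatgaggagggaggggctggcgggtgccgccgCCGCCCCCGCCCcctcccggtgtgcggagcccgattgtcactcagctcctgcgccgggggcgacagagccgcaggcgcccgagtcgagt
DPP4: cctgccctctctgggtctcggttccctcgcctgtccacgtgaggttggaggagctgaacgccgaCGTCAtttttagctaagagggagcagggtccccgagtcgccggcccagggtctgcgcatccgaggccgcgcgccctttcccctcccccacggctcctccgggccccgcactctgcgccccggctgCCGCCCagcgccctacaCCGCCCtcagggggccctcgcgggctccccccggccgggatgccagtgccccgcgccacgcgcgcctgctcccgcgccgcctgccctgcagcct
The windows are chr6:85449833-85450132 for NT5E (plus strand), chr10:74150971-74151270 for ADK (plus strand), chr1:203127476-203127775 for ADORA1 (plus strand) and chr2:162074166-162074465 for DPP4 (minus strand). Of the 10 members, 9 matched the promoter table, and SLC29A2 did not. In the NT5E window GC made up 75.0% of the bases and there were 37 CpG pairs, against medians of 58.7% and 14 over all 35116 promoters of the table. The NT5E window held TGACG once, at bases -127 to -123 from the start, and CCGCCC at -72 to -67 and at -49 to -44. TGACG on either strand was in 24.6% of all promoters and GGGCGG in 45.0%. The core of the site bound by TEAD factors, GGAATG on either strand, was in 4928 of the 35116 promoters and, among the 9 members, only in the ADK window, at -134 to -129, where its last base is the first of a GC box. The AP-1 site TGANTCA, in 7.71% of all promoters, was in 0 of the 9 windows. ACGTG, the core of the hypoxia response element, was in 21.4% of all promoters and in the windows of ENPP1, DPP4 and SLC29A1. These matches describe letters in a window, and gene counts do not show which start site was used.

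Among the ecto-nucleotidases, NT5E fell in shTRIM21 while ENTPD1 and ENPP1 did not pass the threshold. NT5E, on chromosome 6 at 85450083 to 85495784 (GRCh38.p14, 9 exons in its representative transcript), overlaps no other annotated gene. Its level was 33.4, 30.2 and 31.1 CPM in the shTRIM21 libraries and 79.7, 89.1 and 88.1 CPM in the shControl libraries. Every shTRIM21 library was far below every shControl library, and within a group the spread was small beside this gap. The means were 31.6 ± 1.66 against 85.6 ± 5.13 CPM (SD, n = 3 each), 2.71-fold lower in shTRIM21, a log2 fold change of -1.44 (SE 0.066, 95% interval -1.58 to -1.30 from the edgeR fit). Of the 15131 genes tested, 100 had a larger change in either direction. In bulk RNA, fewer cells with CD73 transcript and less transcript per cell cannot be told apart.

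ENTPD1, on chromosome 10 at 95694185 to 95877266, was at 21.4, 24.7 and 24.8 CPM in shTRIM21 and 21.9, 19.6 and 22.2 CPM in shControl. The groups overlapped, with 1 shTRIM21 library among the controls, and the log2 fold change was 0.16 (SE 0.084, 95% interval -0.02 to 0.34). The antisense gene ENTPD1-AS1 overlaps this locus on the opposite strand and had 1 to 7 counts per library. ENPP1, on chromosome 6 at 131808020 to 131895155, was at 9.75, 8.12 and 11.3 CPM in shTRIM21 and 7.66, 8.41 and 7.62 CPM in shControl. It varied most among the shTRIM21 libraries of all members, with a coefficient of variation of 16.3%, and shTRIM21 replicate 2 lay inside the control range. Its log2 fold change was 0.30 (SE 0.12, 95% interval 0.03 to 0.56). It passed the threshold only with library sizes alone (0.51) or without shTRIM21 replicate 2 (0.41), among the alternatives tried.

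**Figure D1:**
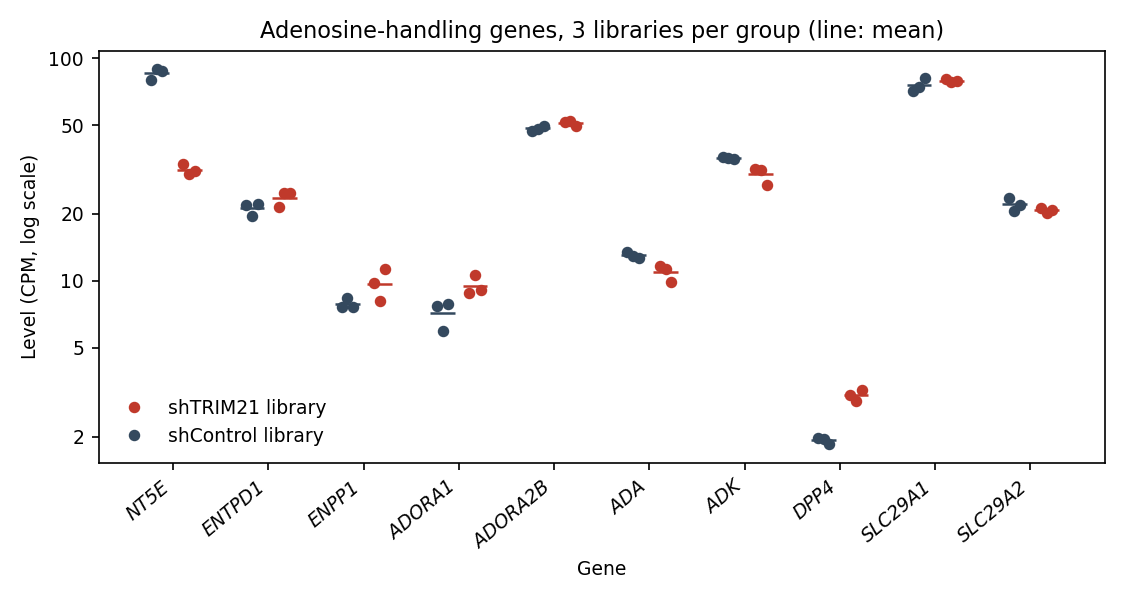
Level of each of the 10 genes (CPM with TMM scaling, log axis) in the 3 shTRIM21 libraries (red) and the 3 shControl libraries (dark), with a line at each group mean. NT5E shows the widest gap between groups, from 31.6 to 85.6 CPM in the means, and the points of ADORA2B and of the transporters SLC29A1 and SLC29A2 overlap.

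Levels of different genes were compared per length, as CPM per kilobase of a representative GENCODE transcript. In shControl NT5E made up 80.7%, 83.3% and 82.1% of the summed level of the 3 ecto-nucleotidase transcripts, and in shTRIM21 62.9%, 58.7% and 57.7%. ENTPD1 made up 14.3% ± 1.36 in shControl and 31.5% ± 2.81 in shTRIM21 (SD, n = 3 each), and ENPP1 3.61% ± 0.196 and 8.74% ± 1.22. The summed level was 29.4 ± 1.35 CPM per kilobase in shControl and 14.9 ± 0.359 in shTRIM21. NT5E thus remained the most abundant of the 3 transcripts in all 6 libraries, and the drop of the sum was that of NT5E. The shares hold for these 3 genes only. ENTPD2, a further ecto-nucleotidase gene described below, is not in the sum, and with it the shares of NT5E would be lower. Its means were 16.0 CPM in shTRIM21 and 11.7 CPM in shControl, over a representative transcript of 2095 bases.

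**Figure D2:**
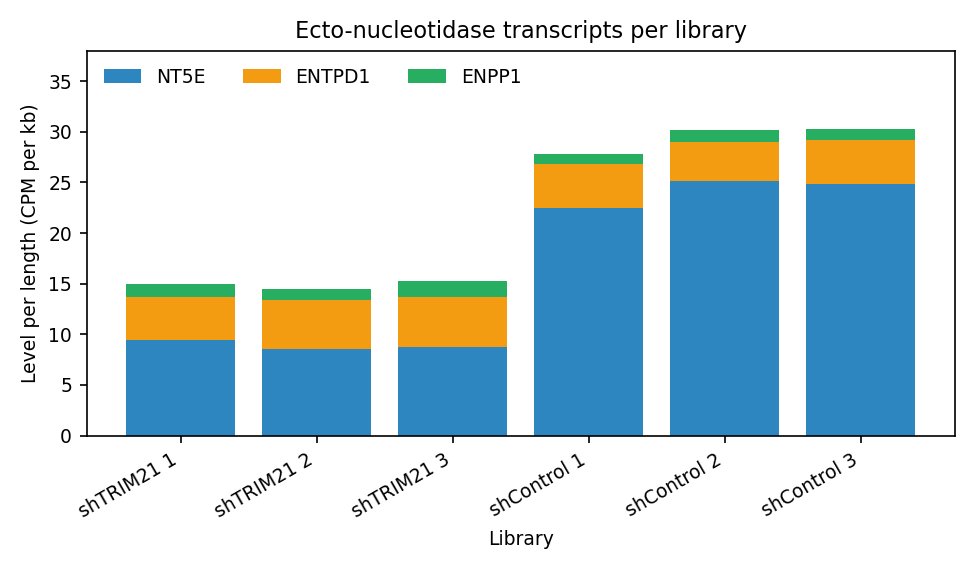
Level per length (CPM per kilobase of transcript) of NT5E, ENTPD1 and ENPP1, stacked, in each of the 6 libraries. The stack is 14.5 to 15.2 high in shTRIM21 and 27.8 to 30.2 in shControl, and the part of NT5E accounts for the difference.

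Of the receptors, ADORA1 rose and ADORA2B, the more abundant, did not pass the threshold. ADORA1, on chromosome 1 at 203127726 to 203167405, encodes the A1 receptor, which couples to inhibitory G proteins. It was at 8.79, 10.6 and 9.09 CPM in shTRIM21 and 7.74, 5.99 and 7.84 CPM in shControl. Every shTRIM21 library was above every control, though shTRIM21 replicate 1 exceeded shControl replicate 3 by little. The log2 fold change of ADORA1 was 0.40 (SE 0.13, 95% interval 0.13 to 0.67), or 1.32-fold. The ADORA1 call was lost in some fits with 1 library left out. Its change was 0.31 without shTRIM21 replicate 2, 0.43 without shTRIM21 replicate 3 and 0.29 without shControl replicate 2. Fits with 1 library fewer also called fewer of all tested genes, 12% to 16.9% against 20.8% with all 6.

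ADORA2B, on chromosome 17 at 15850362 to 15975746, encodes the A2B receptor, which couples to stimulatory G proteins and responds only to high adenosine. Its level was 51.9, 52.1 and 49.6 CPM in shTRIM21 and 47.0, 48.3 and 49.9 CPM in shControl. The ranges met, since shTRIM21 replicate 3 lay just under shControl replicate 3. The log2 fold change was 0.08 (SE 0.058, 95% interval -0.04 to 0.21). Per length ADORA2B stood at 27.9 ± 0.822 CPM per kilobase in shControl against 2.11 ± 0.306 for ADORA1 (SD, n = 3 each), and at 29.5 ± 0.796 against 2.79 ± 0.288 in shTRIM21. Of the other adenosine receptor genes, ADORA2A was at 3.24 ± 0.327 CPM in shTRIM21 and 3.72 ± 0.398 CPM in shControl (SD, n = 3 each, log2 fold change -0.20, SE 0.17, edgeR adjusted p = 0.431), and ADORA3 was listed at 0 in all 6 libraries.

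Of the enzymes that remove adenosine, ADK fell and ADA did not pass the threshold, while DPP4, which anchors ADA at the surface of cells, rose. ADK, on chromosome 10 at 74151221 to 74709290, encodes adenosine kinase. Its level was 31.7, 31.5 and 27.1 CPM in shTRIM21 and 35.9, 35.6 and 35.4 CPM in shControl. The 3 controls were nearly equal, with a coefficient of variation of 0.617%, and all shTRIM21 libraries lay below them, replicate 3 the lowest. ADK changed by -0.24 on the log2 scale (SE 0.073, 95% interval -0.40 to -0.09), or 1.18-fold lower. The call was lost with upper-quartile factors (-0.20), with library sizes alone (-0.04), without shTRIM21 replicate 3 (-0.17) and without shControl replicate 1 (-0.24), 2 (-0.25) or 3 (-0.25). In the annotation 9 other genes overlap the long ADK locus, of which 0 have a row in the count tables.

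ADA, on chromosome 20 at 44619522 to 44651699, was at 11.6, 11.3 and 9.85 CPM in shTRIM21 and 13.5, 13.005 and 12.7 CPM in shControl. Each shTRIM21 library was below each control and replicate 3 was again the lowest. The log2 fold change was -0.26 (SE 0.096, 95% interval -0.46 to -0.05), close to that of ADK but with a larger error, and ADA was short of the threshold in the fit as reported and under all 17 alternatives. DPP4, on chromosome 2 at 161992245 to 162074215, also encodes a serine peptidase, CD26. It had 115, 113 and 123 counts in shTRIM21 and 74, 72 and 67 in shControl, or 3.06, 2.88 and 3.25 against 1.96, 1.96 and 1.85 CPM. The groups were well apart, and counting alone gives an error of 9.25% and 11.9% of a library's value at these depths. DPP4 rose by 0.67 on the log2 scale (SE 0.18, 95% interval 0.28 to 1.07), or 1.59-fold. Without shTRIM21 replicate 3 its change was 0.63 and without shControl replicate 3 it was 0.64, each short of the threshold. With shControl replicate 2 as the only control the change of DPP4 was 0.64.

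Neither equilibrative transporter passed the threshold. SLC29A1, on chromosome 6 at 44219615 to 44234142, encodes ENT1 and was the most abundant member per length in both groups. It was at 80.4, 78.4 and 79.1 CPM in shTRIM21 and 71.7, 74.0 and 81.2 CPM in shControl. The highest library was a control, and the log2 fold change was 0.07 (SE 0.059, 95% interval -0.06 to 0.19). SLC29A2, on chromosome 11 at 66362521 to 66372446, encodes ENT2 and was at 21.3, 20.2 and 20.9 CPM in shTRIM21 and 23.6, 20.7 and 21.97 CPM in shControl. Its ranges overlapped, and the log2 fold change was -0.09 (SE 0.078, 95% interval -0.26 to 0.08), turning to 0.13 with library sizes alone.

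Over the members, 4 of 10 were called, NT5E and ADK lower and ADORA1 and DPP4 higher, where 20.8% of all tested genes were called, 1667 lower and 1479 higher. A gene counted as called at a Benjamini-Hochberg adjusted p under 0.05 over the 15131 tested genes. The groups did not overlap for 3 members that were lower and 2 that were higher, where 37.7% of all tested genes did not overlap. Nothing is read from these counts, because the members were chosen with this comparison known. Their median log2 fold change was 0.07, beside 0.01 over all tested genes. Without shControl replicates 1 and 3, the libraries richest in ribosomal RNA, shControl replicate 2 is the only control. Against it NT5E changed by -1.50 and ADORA1 by 0.66, and ADORA1 was lowest in that control library. With library sizes alone, which moved the median of all tested genes to 0.22, ENTPD1 was at 0.38, ADORA1 at 0.63, ADORA2B at 0.29, ADA at -0.05 and SLC29A1 at 0.28.

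**Figure D3:**
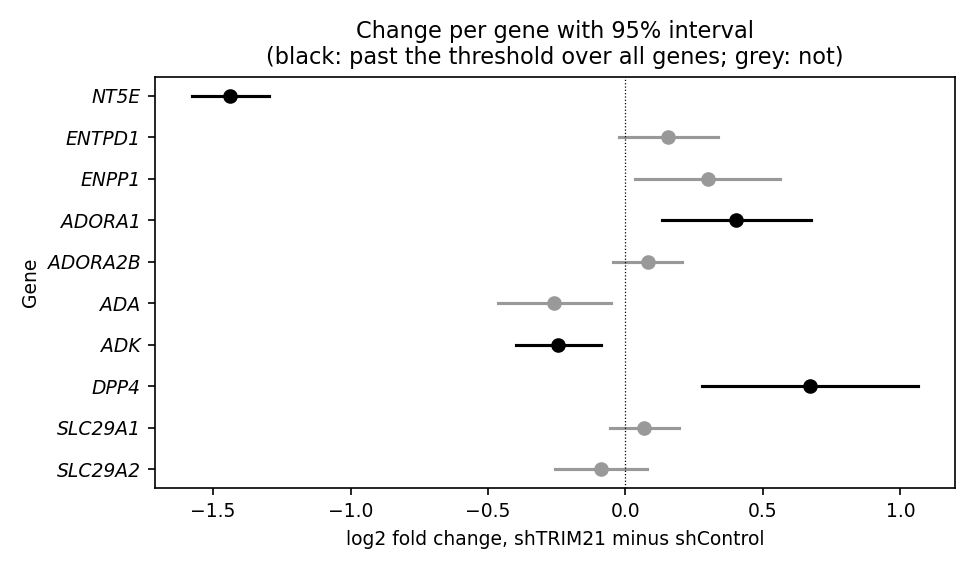
Change of each gene between groups (log2 fold change, shTRIM21 minus shControl, point) with its 95% interval from the edgeR fit (bar). Black genes passed the threshold over all tested genes and grey genes did not. NT5E at -1.44 stands far from the other 9 genes, which lie between -0.26 and 0.67.

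The order of the members by level per length was SLC29A1, ADORA2B, NT5E, ADK, SLC29A2, ADA, ENTPD1, ADORA1, ENPP1 and DPP4 in shControl. It ran from 32.5 ± 2.13 CPM per kilobase for SLC29A1 and 24.1 ± 1.45 for NT5E down to 0.493 ± 0.0163 for DPP4 (SD, n = 3 each). Of the neighbours in this order, SLC29A2 (8.22 to 9.40) and ADA (8.27 to 8.80) overlapped, and the others did not. In shTRIM21 NT5E, at 8.91 ± 0.467, lay below ADK at 13.5 ± 1.18 and just above SLC29A2 at 8.26 ± 0.222. With the longest GENCODE transcript of each gene, NT5E was at 8.07 and came below SLC29A2. NT5E was thus the third of the members in the controls and lay between ADK and SLC29A2, or just below SLC29A2, in the knockdown.

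**Figure D4:**
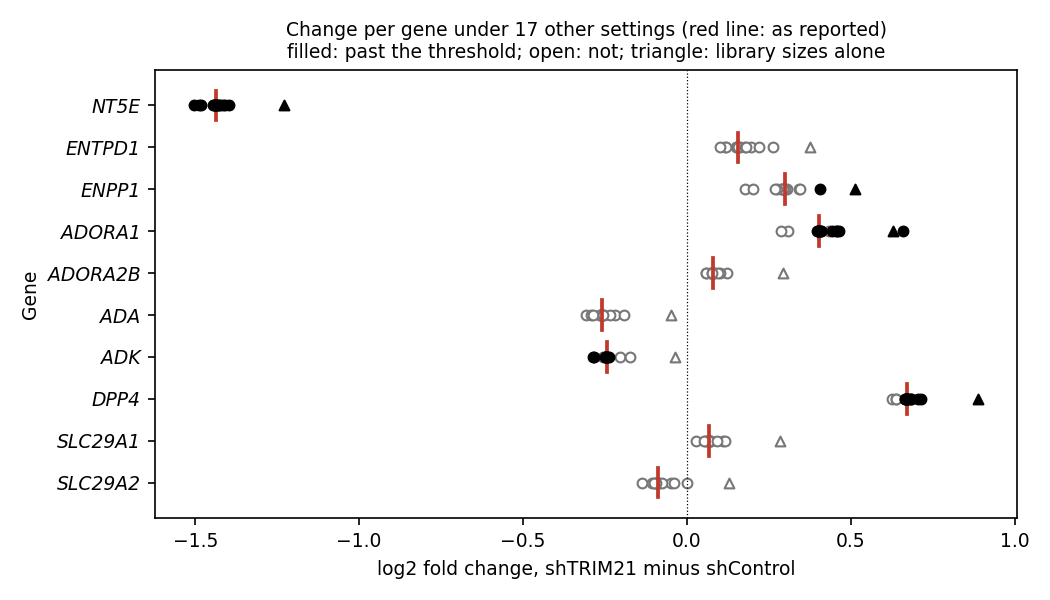
Log2 fold change of each gene (shTRIM21 minus shControl) under 17 other scalings, filters, tests and sets of libraries, with a red line at the value reported. Filled points passed the threshold and open points did not, and the triangle marks library sizes alone, which moves every gene to the right. NT5E ran from -1.50 to -1.23 over the 17, while ADORA1, ADK and DPP4 each lost their call in some. The 17 refit the same libraries, so a kept call is no further support for a member.

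The 5 other genes whose pattern over the 6 libraries was nearest to that of NT5E, by the distance of centred log2 CPM over 11096 genes averaging 5 CPM or more, were TNFRSF6B, BCAR3, MGLL, SLC2A3 and EMP1. TNFRSF6B, a decoy receptor gene that shares a readthrough transcript with RTEL1, lay at a root mean square distance of 0.050 log2 units (r = 0.999 over 6 libraries) and went from 117 ± 10.8 to 45.4 ± 1.33 CPM (SD, n = 3). BCAR3, of an adhesion adaptor, lay at 0.064 (r = 0.996). MGLL, of a monoglyceride lipase, lay at 0.084 (r = 0.995), the glucose transporter gene SLC2A3 at 0.098 (r = 0.993), and EMP1, an epithelial membrane protein gene, at 0.10 (r = 0.993). The 6 points fall into the 2 groups of the study and share its control libraries and scaling, and 564 genes had r above 0.95. For ADORA2B, which hardly moved, the nearest were TMEM183A, ALDH4A1, YTHDF2, PTCD3 and TMED2, all at 0.014 to 0.019 log2 units, with group changes of 0.08 to 0.09.

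Beyond these members, 130 other purinergic and cyclic AMP genes in 6 lists were examined, of which 92 could be tested, 38 fell under the filter and 16 of those were listed at 0 in all libraries. Of the tested genes 10 fell and 10 rose, 21.7% in all, beside 20.8% of all tested genes. One of the 10, the connexin gene GJA1, reached the filter's minimum in no control library, and without it 19 of 91 were called, or 20.9%. These lists too were chosen with earlier results of these data known, so their counts and p-values are given as a description. The counts of each list below stand beside the same 20.8% of all tested genes, and nothing is read from them. Without shControl replicates 1 and 3 only shControl replicate 2 is left as control, so no counts are given for that fit. The median log2 fold change of the tested list genes was -0.0025, beside 0.0054 over all tested genes. With upper-quartile factors 8 were lower and 15 higher, beside 1161 lower and 1899 higher over all tested genes. With library sizes alone, where the median of all genes was 0.22, 0 were lower and 13 higher, beside 138 and 1831 over all tested genes. GJA1 is included in each of these list counts.

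Among enzymes of extracellular nucleotides, 8 of 18 were tested, 2 rose and 1 fell. ENTPD2, of an ecto-nucleotidase that mainly cuts ATP to ADP, was at 15.8, 16.95 and 15.3 CPM in shTRIM21 and 12.05, 11.6 and 11.4 CPM in shControl. The groups were apart, with a log2 fold change of 0.46 (SE 0.087, edgeR adjusted p = 0.00184). Leaving aside the fit with 1 control, the adjusted p ran from 0.000182 (DESeq2) to 0.0203 (edgeR without shTRIM21 replicate 2). ENPP5, of the ENPP family, changed by 0.46 (SE 0.15, edgeR adjusted p = 0.0372) and was not called without shTRIM21 replicate 2 (0.48) or 3 (0.32) or without shControl replicate 2 (0.37) or 3 (0.48). ENTPD7, of an intracellular member of the CD39 family, changed by -0.35 (SE 0.075, edgeR adjusted p = 0.00373), and its locus overlaps COX15. CD38, ALPL, ENPP2 and ENPP3 were among the 10 untested.

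Of the other adenosine and P2 receptors 8 of 19 were tested, and P2RY1, of an ADP receptor, was the only gene called. It was at 3.73, 5.34 and 4.73 CPM in shTRIM21 and 3.34, 2.69 and 3.09 CPM in shControl. The groups did not overlap, and the log2 fold change was 0.60 (SE 0.17, edgeR adjusted p = 0.0241). The P2RY1 call was lost without shTRIM21 replicate 2 (0.47) or 3 (0.58) and without shControl replicate 2 (0.51) or 3 (0.60). P2RY11 and P2RY2, of receptors for ATP, were at 0.08 (SE 0.069) and 0.03 (SE 0.10) on the log2 scale, neither called.

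Among intracellular enzymes of adenosine and AMP 23 of 28 were tested, 3 fell and 1 rose. NT5C2, of a cytosolic 5′-nucleotidase, was at 48.9, 47.5 and 46.4 CPM in shTRIM21 and 63.8, 63.6 and 59.6 CPM in shControl, all knockdown libraries lower. It changed by -0.39 (SE 0.058, edgeR adjusted p = 0.000288) and overlaps CNNM2. The adenylate kinase genes AK4 and AK1 changed by -0.28 (SE 0.060, edgeR adjusted p = 0.00452) and -0.22 (SE 0.075, edgeR adjusted p = 0.0488), the latter near the threshold and lost under 10 of the 17 alternatives. Among these were the fits without shTRIM21 replicate 2 (-0.19) or 3 (-0.19) and without shControl replicate 1 (-0.21), 2 (-0.22) or 3 (-0.24). MTAP, which salvages methylthioadenosine, rose by 0.25 (SE 0.051, edgeR adjusted p = 0.00311). With shControl replicate 2 as the only control its change was 0.21. AHCY, which splits S-adenosylhomocysteine into adenosine and homocysteine, was at 355 to 382 CPM in shTRIM21 and 395 to 415 CPM in shControl without being called (-0.15, SE 0.052, edgeR adjusted p = 0.0551). PNP, next after ADA in purine breakdown, was at -0.0029 (SE 0.053).

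For nucleoside transport and ATP release, 9 of 13 genes were tested, with a median log2 fold change of 0.14, and without GJA1 8 were tested, 2 rose and 0 fell, with a median of 0.07. SLC29A4, of a transporter of adenosine and monoamines related to ENT1, was at 23.99, 23.6 and 23.7 CPM in shTRIM21 and 17.3, 12.7 and 17.4 CPM in shControl. The shTRIM21 libraries were nearly equal and all above the controls, with a change of 0.59 (SE 0.11, edgeR adjusted p = 0.00122); SLC29A4 overlaps TNRC18. PANX2, of a pannexin channel, rose by 0.56 (SE 0.10, edgeR adjusted p = 0.00134), while PANX1, of the pannexin known for ATP release, was at -0.0021 (SE 0.079). GJA1, of the gap junction protein connexin 43, had 10, 22 and 14 counts in shTRIM21 and was listed at 0 in the 3 controls. Against a floor of 3 counts in each control library, its level was at least 4.91-fold higher. It passed the filter only through the shTRIM21 libraries, so no p-value is given for it. The concentrative transporters SLC28A1, SLC28A2 and SLC28A3 were not tested.

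**Figure D5:**
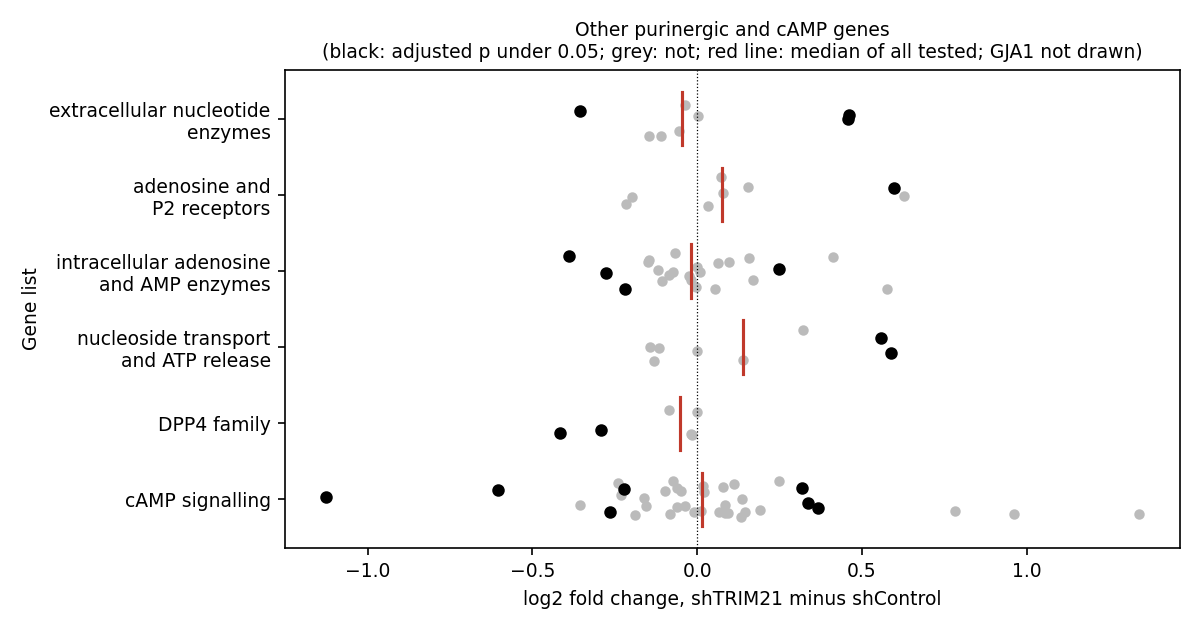
Log2 fold change (shTRIM21 minus shControl) of each tested gene of the 6 other lists, with called genes in black, uncalled genes in grey and the list median as a red line (GJA1 counts in the median and is not drawn). Called genes lie on both sides of 0, 10 lower and 9 higher, and the medians lie between -0.05 and 0.14.

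In the list named for DPP4, which holds dipeptidyl and prolyl peptidases, 6 of 9 were tested, 2 fell and 0 rose. DPP3, a zinc peptidase gene, was at 53.2, 52.7 and 46.6 CPM in shTRIM21 and 68.0, 68.7 and 67.1 CPM in shControl. DPP3 changed by -0.42 (SE 0.063, edgeR adjusted p = 0.000300) and DPP9, of a cytosolic relative of DPP4 and with DPP9-AS1 on the other strand, by -0.29 (SE 0.051, edgeR adjusted p = 0.000984). The direction was opposite to that of DPP4, and FAP, the nearest relative of DPP4 and a fibroblast marker, was listed at 0 in all libraries.

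In the list of cyclic AMP signalling behind the receptors 38 of 43 genes were tested, 4 fell and 3 rose. The stimulatory G protein gene GNAS, through which the A2B receptor acts, was at 0.01 (SE 0.060). The inhibitory G protein gene GNAI1 rose by 0.32 (SE 0.066, edgeR adjusted p = 0.00334). With shControl replicate 2 as the only control GNAI1 changed by 0.34. PRKACB, a catalytic subunit of protein kinase A, went from 105 ± 5.51 to 135 ± 3.25 CPM (SD, n = 3), a change of 0.37 (SE 0.055, edgeR adjusted p = 0.000286). The regulatory subunit gene PRKAR2A changed by -0.22 (SE 0.059, edgeR adjusted p = 0.0163) and was lost without shTRIM21 replicate 2 (-0.23) or shControl replicate 2 (-0.18). ATF1, of a CREB-family factor, was at 19.0, 17.1 and 15.96 CPM in shTRIM21 and 24.9, 28.8 and 25.5 CPM in shControl. The groups were apart, with a change of -0.61 (SE 0.088, edgeR adjusted p = 0.000226). PDE4D and PDE7A, of phosphodiesterases, changed by -1.13 (SE 0.33, edgeR adjusted p = 0.0253) and 0.34 (SE 0.094, edgeR adjusted p = 0.0203), PDE4D at only 16 to 53 counts per library. PDE4D was not called without shTRIM21 replicate 1 (-1.11) or 2 (-0.94) or shControl replicate 1 (-1.11) or 3 (-1.02), and PDE7A not without shTRIM21 replicate 2 (0.29) or 3 (0.31) or shControl replicate 2 (0.28) or 3 (0.32). AKAP12, of an anchoring protein of protein kinase A, changed by -0.26 (SE 0.078, edgeR adjusted p = 0.0269), and not beyond the threshold without shTRIM21 replicate 1 (-0.22) or 2 (-0.28). Genes that cyclic AMP induces in many cells, NR4A1, NR4A2, NR4A3, SIK1 (which has a near-identical copy, SIK1B), PER1, FOSB and CREM, were all tested and none was called, with changes from -0.24 to 0.08.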

How the data were processed

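Per the labels, total RNA was depleted of ribosomal RNA and sequenced. Raw counts per symbol were deposited for each library in a table of its own, without normalization. The submitters' processing notes name TopHat2, edgeR 3.38.1, limma 3.52.2 and hg38 without a role, and for the counter, the annotation and strand use the entry is: not given in the sources used here. Thus reads of overlapping genes may be counted together. Counts were analysed here with R 4.3.3 and edgeR 4.0.16: filterByExpr (minimum count 10, minimum total 15), TMM factors, and the quasi-likelihood F test of shTRIM21 against shControl over all 6 libraries, with Benjamini-Hochberg adjustment over 15131 genes and a threshold of 0.05. SE is the absolute log2 fold change over the square root of F. CPM uses TMM-scaled sizes, and errors beside CPM are SDs. Counting error is the inverse square root of a gene's mean count in a group, in percent. The totals of 33499827 to 44466137 counts include the ribosomal RNA rows, and 27808151 to 29100459 counts lay outside these rows. Replicates differed beyond sampling noise (chi-square per gene of 4.54 or more), so none was merged.

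The members and lists were chosen with earlier results of these data known. Named were all members, TRIM21, every called gene of the lists (at most 10 per list and direction) and the 5 nearest patterns. ADORA3, FAP, PNP and other uncalled genes were named for their role. Positions are from RefSeq (GRCh38.p14, 95.5% of symbols matched) and transcript lengths from GENCODE release 29, not necessarily the annotation the authors counted on. Alternatives were other scalings, filters, DESeq2 1.42.0, limma-voom (limma 3.58.1), robust empirical Bayes, the replicate block and leaving out libraries. Leaving out shControl replicates 1 and 3 was chosen after seeing the data, and it leaves shControl replicate 2 as the only control. This fit is among the 17 alternatives.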

Additional observations from a re-analysis of the deposited data

How the results depend on the processing

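Over 17 alternatives, 154 of 170 fold changes of the 10 members kept their direction and their side of the threshold, 13 lost the call, 2 gained one and 1 turned: SLC29A2, to 0.13 with library sizes alone. Of 339 values of the 20 named list genes, GJA1 among them, 293 kept both and 46 lost the call. ENTPD2, SLC29A4, PANX2 and PRKACB kept their call under all 17 alternatives, and all 10 lower genes lost theirs with library sizes alone. Members called lower numbered 2, also with ribosomal RNA rows left out, and 1 with upper-quartile factors or with library sizes alone. Leaving out 1 library gave 1 to 2 lower and 0 to 2 higher members. In these fits 12% to 16.9% of all tested genes were called, against 20.8% with all 6 libraries. List genes called lower numbered 10, 11 with ribosomal RNA rows left out and 0 with library sizes alone. With 1 library left out they numbered 6 to 9, the 6 without shTRIM21 replicate 2. Over all genes 1667 were lower and 1479 higher, against 138 and 1831 with library sizes alone and 1003 and 841 without shTRIM21 replicate 2. With ribosomal RNA rows left out 1794 were lower and 1450 higher. The cause of these differences was not tested. All alternatives refit the same libraries. A kept call therefore describes the fit, and is no further support for a gene chosen with these results known. With the replicate number as a block, 2 members were lower and 2 higher, 8 list genes lower and 11 higher, and 1520 and 1385 of all genes; AK1 and AKAP12 lost their call. Same-numbered libraries did not deviate together (r = -0.034, -0.044 and -0.071), so the numbers were not taken as pairs. Genes at a few CPM, such as DPP4, are limited by counting error.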
